A study of Mus musculus with 16 samples.

Results

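The response of 3583T3 and 3151T4 cells to Nfib was compared, and the genes whose response differed between these lines of mouse small cell lung cancer were described. The contrast is between 8 of the 16 arrays of the series, 2 control and 2 Nfib arrays for each line; the model was fitted to all 16, from which it took its estimate of spread, and 8777 genes were tested. For each gene the change with Nfib in 3583T3 (Nfib minus control) was set against the same change in 3151T4, and the first minus the second is called the difference. All values are log2 signals as the authors deposited them, so a change of 1 is 2-fold. Each gene is read from 1 probe set, and a size or a bound given for it holds for that probe set.

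Both lines were grown from dissociated tumours in standard medium with serum. The control cultures, labelled by line alone, carried no vector and no drug is given for them. The Nfib cultures stably expressed FLAG-tagged mouse Nfib from the retroviral vector MSCV-Nfib-PGK-Neo and were selected with G418, so vector, drug selection and Nfib go together in every change given here. In the other 8 arrays the cells carried the Mycl1 vector MSCV-L-myc-PGK-Puro, selected with puromycin, alone or with Nfib. Replicates 1 and 2 are 3583T3 and replicates 3 and 4 are 3151T4, so arrays are called control 1, Nfib 1, control 3, Nfib 3 and so on. No label says that replicates were separate cultures, so p-values measure the spread between these arrays, which may be technical, and 2 arrays a group limit the precision.

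Nuclear factor I/B, the product of Nfib, is a transcription factor that binds DNA as a dimer through a palindromic motif. It is needed for normal lung maturation and for development of the brain, and the gene is amplified in a share of small cell lung cancers of mouse and human. Nuclear factor I proteins can raise or lower transcription depending on the promoter and on the cell, and they are known for opening chromatin in small cell lung cancer cells. Small cell lung cancer is a neuroendocrine tumour, but cell lines from it can grow with few neuroendocrine features and with mesenchymal ones.

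The label of 1 array of the comparison went against its signal. The Mycl probe set 1422087_at, which read 9.08 to 11.05 on 7 of the 8 arrays labelled with the Mycl1 vector, was at 10.22 on the array labelled Nfib 2, against 2.12 to 2.55 on the other 7 arrays compared here. On the array labelled Nfib+Mycl1 replicate 2 of 3583T3 it was at 2.67. The Mycl probe set 1434777_at read 6.81 and 6.48 and then 7.28 and 4.95 with Nfib in 3583T3. In 3151T4 it fell by 2.88 (limma, adjusted p = 0.0103), from 6.64 and 5.93 to 3.81 and 3.00. Its difference of 2.35 was not called (adjusted p = 0.210). The third Mycl probe set, 1422088_at, was under log2 3 on every array and fell by 0.58 in 3151T4 (adjusted p = 0.00845). The array labelled Nfib 2 correlated best with Nfib+Mycl1 replicate 1 of 3583T3, and Nfib 1 with the array labelled Nfib+Mycl1 replicate 2, while each of the other 12 had its highest correlation with its fellow replicate. Whether the 2 arrays were exchanged was not tested. The arrays were used as labelled, the second value of each 3583T3 Nfib pair is the array labelled Nfib 2, and the difference of each named gene is also given without it. Unless given without it, every 3583T3 change, difference, error and count thus averages in an array with the signal of the Mycl1 vector. The 4 Nfib probe sets gave no check of the vector: none rose in either line, and 1448288_at fell by 0.65 in 3151T4 (limma, adjusted p = 0.0336). Their differences were 0.24, 0.61, 0.80 and 0.36 (adjusted p = 0.247 to 0.759), and where they lie relative to the vector's cDNA was not analysed here. The Mycn probe set 1425923_at read 2.03 to 2.56 on control arrays and 12.49 to 12.72 on Nfib arrays of both lines. Its difference was 0.25 (limma, adjusted p = 0.808). It was as high, at 12.19 to 13.26, on the arrays labelled with the Mycl1 vector, with or without Nfib. The Mycn probe sets 1417155_at and 1425922_a_at changed by -0.38 and -0.03 in 3583T3 and by 0.41 and -0.08 in 3151T4, none called. The cause of the high signal was not tested.

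Neuroendocrine markers were mostly absent. Of 25 such genes on the array, 4 had a mean above log2 4 in 3583T3 controls and 7 in 3151T4 controls. Ncam1 (12.15 and 12.33), Uchl1 (10.63 and 11.04), Eno2 (6.50 and 8.39) and Tubb3 (6.54 and 7.92) were among them in both lines. Ddc (10.54), Scg2 (4.93) and Rab3c (4.86) were above log2 4 in 3151T4 controls only. Chga and Syp were under log2 3 in the control means of both lines. Of 11 fibroblast markers 10 had a control mean above log2 4 in each line. The controls also carried leukocyte markers, which are described with the genes they move with.

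The difference passed the test (limma, Benjamini-Hochberg adjusted p under 0.05 over all genes tested) for 601 of 8777 genes, a background of 6.85%. The difference was higher in 3583T3 for 241 genes (2.75%) and lower for 360 (4.10%). Many of these contrasts rest on a group mean near the signal floor, where the array no longer tracks the RNA. With the floor put at log2 4, 222 genes were set aside, 71 higher and 151 lower, since their true difference could be smaller than measured by an unknown amount. The remaining 379 genes (4.32%) were 170 higher (1.94%) and 209 lower (2.38%) in 3583T3; 330 had all 4 group means above the floor and 49 kept a difference of at least 2-fold when the means under it were raised to log2 4. For 343 of the 379 the difference was at least 2-fold.

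Within 3583T3 Nfib changed 886 genes (10.1% of those tested, 450 up and 436 down), and within 3151T4 it changed 1208 (13.8%, 694 up and 514 down). Of the 352 genes called in each line, 328 had the same sign and 24 opposite signs. Among the 170 genes higher in 3583T3, 54 rose in 3583T3 alone, 74 fell in 3151T4 alone, 12 rose in 3583T3 and fell in 3151T4, 7 rose in both, 8 fell in both and 15 passed the test in neither line. Among the 209 lower in 3583T3, 114 rose in 3151T4 alone, 61 fell in 3583T3 alone, 10 fell in 3583T3 and rose in 3151T4, 12 rose in both, 1 fell in both and 11 passed in neither. Here "alone" means that the other line's change missed the threshold. The distance between the lines was smaller with Nfib than in controls for 188 of the 379 genes (49.6%) and for 4347 of all 8777 (49.5%).

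**Figure D1:**
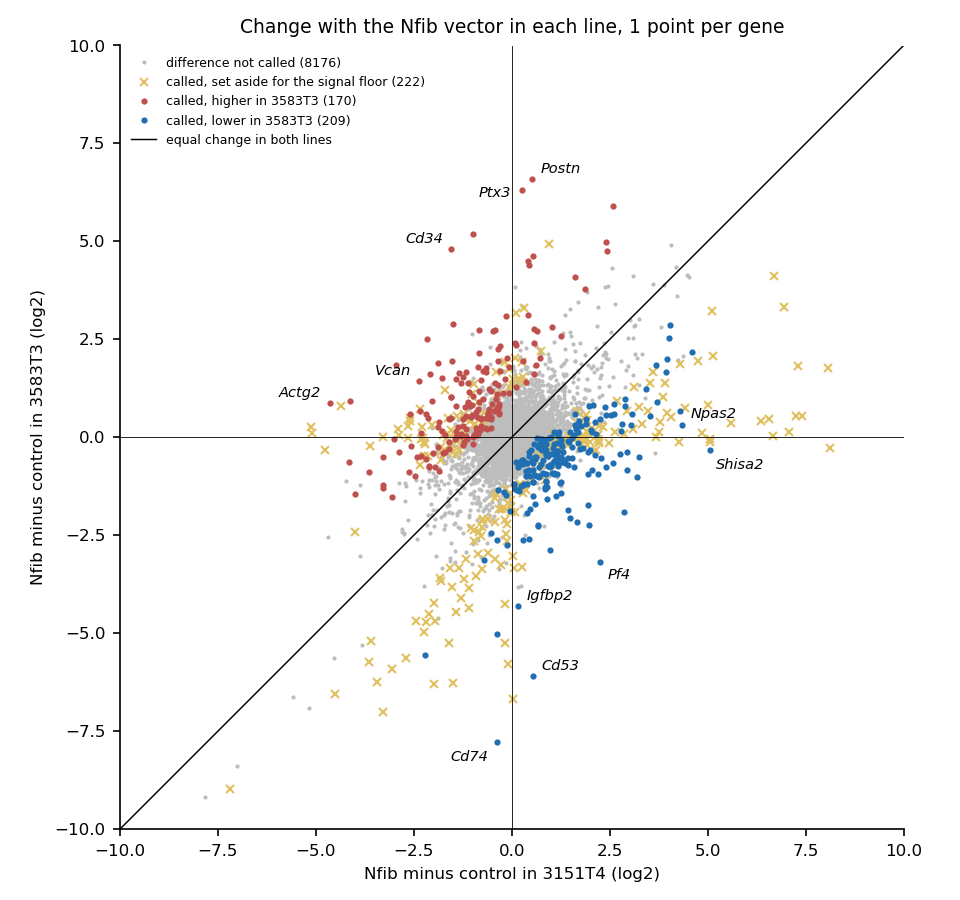
Change with Nfib in 3151T4 (x axis, log2) against the change in 3583T3 (y axis, log2), 1 point per gene tested. The 170 red and 209 blue genes are those called and not set aside, the 222 crosses were set aside for the floor, and the diagonal marks equal change; the red genes spread upward or to the left of it and the blue genes downward or to the right.

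Leaving out the array labelled Nfib 2, the difference was called for 468 genes, 227 of the 379 kept their call and all 379 kept their sign. Without that array and the array labelled Nfib+Mycl1 replicate 2, which enters only the estimate of spread, 668 genes were called and 292 of the 379 kept their call. The count of 601 fell to 358 without control 2, 380 without control 3, 361 without control 4, 360 without Nfib 3 and 343 without Nfib 4. The count not set aside was 242 without control 1, 198 without control 2, 626 without Nfib 1, 222 without control 3, 205 without Nfib 3, 201 without control 4 and 192 without Nfib 4. Within 3583T3 the count was 482 without control 1, 455 without control 2, 1390 without Nfib 1 and 471 without Nfib 2. Within 3151T4 it was 743 without control 3, 675 without Nfib 3, 682 without control 4 and 658 without Nfib 4. Of the 76 genes not set aside that are named below, 52 were called without each of the 8 arrays in turn; for the others the arrays whose omission ended the call are named, with the range of the difference over those omissions. Without the array labelled Nfib 2 alone, 8 named genes lost their call: Cdkn1a at 2.36 (adjusted p = 0.0634), Sema4d at 1.19 (0.0726), Ntn1 at 1.07 (0.0966), Wdr12 at 0.90 (0.0787), Ifitm3 at 0.89 (0.127), Adamts1 at -1.04 (0.0648), Ccnd2 at -0.95 (0.0516) and Vldlr at -0.98 (0.0649). With only the 8 arrays compared in the fit, Irx2, Prrx1, Wdr12 and Ifitm3 were not called (adjusted p = 0.0515, 0.051, 0.0523 and 0.0667). Without the 2 arrays that go against their labels Ntn1, Wdr12 and Ifitm3 were not called.

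Of the lists examined, that of the extracellular matrix had the most genes higher in 3583T3, and also the most genes tested. With those set aside, 28.9% of its genes were called, against 6.85% of all genes. The share was 37.5% on the list of keratins and epithelial junctions and 54.5% among fibroblast markers. Of 45 collagens and other matrix genes tested, 8 were higher and 2 lower, with 3 more set aside; 13 were called in all, and 12 without the 2 arrays that go against their labels. The list's median difference was -0.10, against -0.03 over all genes. Of 11 fibroblast markers, 3 were higher, 2 lower and 1 set aside, with a median of -0.20. Dcn, 1 of the lower, had means of 9.22 and then 9.88 with Nfib in 3583T3 and of 7.41 and then 11.70 in 3151T4. Lum, the 1 set aside, went from 2.10 to 2.53 in 3583T3 and from 4.28 to 10.64 in 3151T4.

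Postn, periostin, a secreted matricellular protein of stroma, read 5.14 and 4.84 in 3583T3 controls, 11.32 and 11.84 with Nfib, 12.33 and 12.50 in 3151T4 controls and 12.92 and 12.94 with Nfib. It rose by 6.59 ± 0.21 (SE) in 3583T3 and moved by 0.51 ± 0.21 in 3151T4 (adjusted p = 0.127), a difference of 6.07 ± 0.29 (limma, adjusted p = 1.36e-08). Only the 3583T3 controls were low, and the 3583T3 Nfib arrays came close to the level that 3151T4 held with and without Nfib. Fmod, fibromodulin, a proteoglycan that binds collagen fibrils, also rose in 3583T3 alone but stayed well under the level of 3151T4, with 3.22 and 3.39 and then 7.81 and 7.62 in 3583T3, and 12.54 and 12.11 and then 12.88 and 12.63 in 3151T4. Its difference was 3.98 ± 0.33 (adjusted p = 4.15e-06), or at least 3.29 on this probe set with its low controls raised to the floor, but the 5 other Fmod probe sets gave 1.19 to 1.78. Col3a1, a fibrillar collagen, rose by 3.13 ± 0.36 in 3583T3, from 8.18 and 8.25 to 10.85 and 11.83, while 3151T4 stayed between 12.52 and 13.03 (difference 2.71 ± 0.51, adjusted p = 0.00514). Col6a3, a chain of type VI collagen, rose from 6.70 and 6.08 to 9.07 and 8.44 in 3583T3 and was between 10.16 and 10.35 in 3151T4 (difference 2.26 ± 0.40, adjusted p = 0.00316). In these 4 genes the 3583T3 controls were the low ones. The genes were picked from those called higher, and the control level enters the change, so this is no separate result. Over the 379 genes the distance between the lines was smaller with Nfib for 49.6%, against 49.5% of all 8777. Whether Postn, Fmod and Col3a1 could read higher than their 12.11 to 13.03 in 3151T4 was not tested.

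Vcan, versican, a large chondroitin sulfate proteoglycan, moved in opposite directions. It rose by 1.43 ± 0.22 in 3583T3, from 8.10 and 7.94 to 9.48 and 9.42, and fell by 2.36 ± 0.22 in 3151T4, from 8.14 and 8.19 to 5.95 and 5.65 (difference 3.80 ± 0.31, adjusted p = 2.88e-06). The controls of both lines lay within 7.94 to 8.19, and the Nfib arrays of the lines did not overlap. Thy1, a surface glycoprotein of fibroblasts and neurons, was lower: it rose by 2.60 ± 0.33 in 3151T4, from 3.85 and 3.61 to 6.34 and 6.32, and read 7.95 and 8.79 and then 8.54 and 9.37 in 3583T3, where its change missed the threshold (difference -2.01 ± 0.47, adjusted p = 0.0179; -1.74 with the floor). The summed signal of the 11 fibroblast markers, on a log2 scale, was 14.62 and 14.90 in 3583T3 controls and 15.11 and 15.17 with Nfib, and 15.39 and 15.29 in 3151T4 controls and 15.84 and 15.74 with Nfib; its part in these results was not tested. In such bulk cultures fewer cells of a type and less RNA per cell cannot be told apart. With Nfib 1 as the only 3583T3 Nfib array, the differences were 5.81 for Postn, 4.08 for Fmod, 2.22 for Col3a1, 2.57 for Col6a3, 3.83 for Vcan and -2.43 for Thy1, all called. The call was lost for Thy1 without control 2, Nfib 3, control 4 and Nfib 4 (-1.59 to -2.02).

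Matrix proteases split. Of 23 proteases and inhibitors tested, 1 was higher, 2 were lower and 1 was set aside (17.4% called, against 6.85% of all genes). Mmp23, a membrane-anchored metalloproteinase, rose from 4.39 and 4.86 to 6.55 and 8.18 in 3583T3 and read 7.56 and 7.61 and then 7.02 and 7.28 in 3151T4 (difference 3.17 ± 0.60, adjusted p = 0.00514). Adamts5, an aggrecan-cleaving protease, fell by 1.70 ± 0.22 in 3583T3, from 9.98 and 10.25 to 8.31 and 8.52, and moved by 0.59 ± 0.22 in 3151T4 (difference -2.29 ± 0.31, adjusted p = 0.000395). Adamts1, a related protease, rose by 0.75 ± 0.18 in 3151T4, with a difference of -1.06 ± 0.26 (adjusted p = 0.0246). Without the array labelled Nfib 2 the differences of Mmp23 and Adamts5 were 2.35 and -2.40, and that of Adamts1 was -1.04 (adjusted p = 0.0648), no longer called. The call was lost for Adamts1 without control 1, control 2, Nfib 2, control 3, Nfib 3 and control 4 (-0.80 to -1.08). Sulf2, an extracellular enzyme that trims heparan sulfate, rose by 2.51 ± 0.74 in 3583T3, from 2.47 and 3.20 to 3.96 and 6.73, and moved by -2.17 ± 0.74 in 3151T4, from 9.77 and 9.89 to 7.59 and 7.73 (adjusted p = 0.0715). Its difference was 4.68 ± 1.05 (adjusted p = 0.0142) and 3.29 without the array labelled Nfib 2, the higher of its pair, and the call was lost for Sulf2 without control 1, control 3, Nfib 3 and control 4 (4.31 to 4.74). Its own change in 3583T3 was 1.12 without the array labelled Nfib 2 (adjusted p = 0.548).

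Among signalling genes, the Wnt and hedgehog list had 5 higher, 2 lower and 1 set aside of 30 tested (median difference 0.18, 8 called with and 8 without the 2 arrays). That is 26.7% called, against 6.85% of all genes. Sfrp1, a secreted Wnt antagonist, read 2.97 and 3.49 in 3583T3 controls and 7.66 and 7.80 with Nfib, against 7.29 and 6.62 and then 7.48 and 7.29 in 3151T4. It rose by 4.50 ± 0.26 in 3583T3, with a difference of 4.07 ± 0.37 (limma, adjusted p = 1.05e-05), or at least 3.30 on this probe set with the floor; the other Sfrp1 probe sets gave 1.96 and 3.28. The 3583T3 controls alone were low. Dkk2, a secreted ligand of the Wnt co-receptors, differed through 3151T4. It fell by 4.14 ± 0.43 there, from 8.71 and 8.60 to 4.61 and 4.44, and read 5.52 and 5.24 and then 7.16 and 5.45 in 3583T3 (change 0.92 ± 0.43, adjusted p = 0.221; difference 5.06 ± 0.61, adjusted p = 0.00015). Lrp5, a Wnt co-receptor, went the other way, rising by 2.75 ± 0.27 in 3151T4 from 5.22 and 5.13 to 7.88 and 7.97, while 3583T3 read 7.14 and 7.15 and then 7.05 and 6.38 (difference -3.19 ± 0.39, adjusted p = 0.000153). Leaving out the array labelled Nfib 2, the differences were 4.00 for Sfrp1, 5.91 for Dkk2 and -2.86 for Lrp5, all called.

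Of 29 genes of the TGF-beta and BMP pathway, 2 were higher and 3 lower (median difference -0.09), so 17.2% were called, against 6.85% of all genes. Grem1, a secreted BMP antagonist, fell by 1.55 ± 0.34 in 3151T4, from 5.25 and 4.61 to 3.48 and 3.29, and moved by 1.03 ± 0.34 in 3583T3, from 8.36 and 9.26 to 9.47 and 10.21 (difference 2.57 ± 0.47, adjusted p = 0.00421; at least 1.96 with the floor). Inhbb, the activin beta-B subunit, fell by 1.34 ± 0.21 in 3583T3, from 11.39 and 11.46 to 10.17 and 9.99, and stayed within 9.67 to 10.08 in 3151T4 (difference -1.47 ± 0.30, adjusted p = 0.00774). Id4, an inhibitor of basic helix-loop-helix factors, rose by 2.95 ± 0.40 in 3151T4, from 3.70 and 3.19 to 6.65 and 6.14, and read 5.13 and 4.98 and then 5.39 and 3.97 in 3583T3 (difference -3.33 ± 0.57, adjusted p = 0.00244; -2.78 with the floor). With Nfib 1 as the only 3583T3 Nfib array, these differences were 2.20, -1.38 and -2.62, all called.

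Growth factors, their receptors and binding proteins went both ways: of 41 tested 6 were lower in 3583T3, 2 higher and 2 set aside. Their median difference was -0.04, and 24.4% were called, against 6.85% of all genes. With those set aside included 4 were higher and 6 lower, but 8 were higher and 4 lower without the 2 arrays that go against their labels. Kitl, the ligand of the Kit receptor, read 10.78 and 10.58 in 3583T3 controls and 10.14 and 9.37 with Nfib, and 8.50 and 8.88 and then 10.61 and 10.68 in 3151T4. It rose by 1.95 ± 0.28 in 3151T4 and moved by -0.93 ± 0.28 in 3583T3 (adjusted p = 0.056), a difference of -2.88 ± 0.40 (adjusted p = 0.000525). The lines exchanged their order, with 3583T3 the higher in controls and the lower with Nfib. Fgfr2, a fibroblast growth factor receptor, rose from 9.37 and 8.98 to 10.63 and 10.59 in 3151T4 and read 11.01 and 10.98 and then 10.67 and 9.89 in 3583T3 (difference -2.15 ± 0.34, adjusted p = 0.00135). Igfbp2, a binding protein of insulin-like growth factors, fell by 4.30 ± 0.56 in 3583T3, from 10.07 and 10.59 to 6.94 and 5.11, and stayed within 10.40 to 11.02 in 3151T4 (difference -4.46 ± 0.80, adjusted p = 0.00332). Igfbp3, a related binding protein, rose by 1.15 in 3583T3 and fell by 1.09 in 3151T4 (difference 2.23, adjusted p = 0.0108), with an own change in 3583T3 of 1.13 without the array labelled Nfib 2 (adjusted p = 0.199). Igf2, one of those growth factors, was higher as well, rising from 7.06 and 7.56 to 9.03 and 9.15 in 3583T3 and staying within 10.44 to 10.88 in 3151T4 (difference 1.86 ± 0.29, adjusted p = 0.00128). Without the array labelled Nfib 2 the differences of Kitl, Fgfr2, Igfbp2, Igfbp3 and Igf2 were -2.49, -1.77, -3.54, 2.21 and 1.80, all called.

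**Figure D2:**
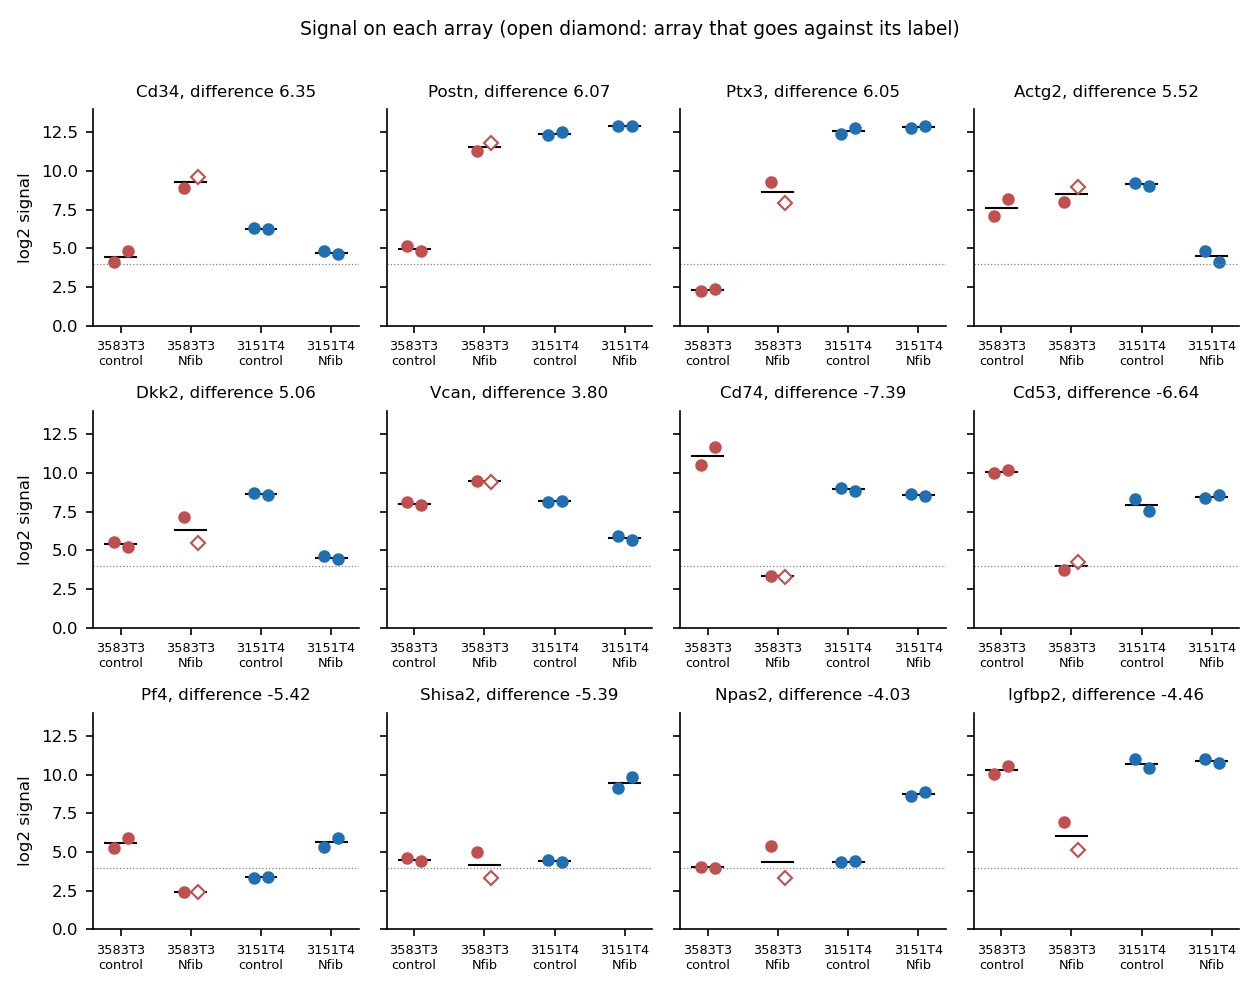
Log2 signal (y axis, from 0) of 12 genes on each control and Nfib array of both lines (x axis), with the group mean as a bar and the difference above each panel. The dotted line is the floor at log2 4, and the open diamond is the array labelled Nfib 2; Postn and Ptx3 rose to near or below the constant level of 3151T4, while Cd74, Cd53 and Igfbp2 fell in 3583T3 and were nearly constant in 3151T4.

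Several epithelial genes fell with Nfib, with differences in both directions. Over all 8777 genes 436 fell in 3583T3 and 514 in 3151T4. On the list of keratins and epithelial junction genes, 16 were tested: 7 fell with Nfib in 3583T3 and 8 in 3151T4; the difference was higher in 3583T3 for 4, lower for none of those not set aside, and 2 were set aside (median 0.34; 4 higher and 2 lower in all, 5 higher and 3 lower without the 2 arrays). Dsp, desmoplakin, the plaque protein of desmosomes, fell by 1.23 ± 0.18 in 3583T3, from 10.54 and 10.17 to 9.14 and 9.10, and by 3.29 ± 0.18 in 3151T4, from 9.49 and 9.63 to 6.25 and 6.30 (difference 2.06 ± 0.25, adjusted p = 0.000174). Krt8, a simple keratin, was at 12.18 and 12.33 and then 11.73 and 11.75 in 3583T3 and fell by 3.29 ± 0.22 in 3151T4, from 8.32 and 8.26 to 5.35 and 4.64 (difference 2.78 ± 0.31, adjusted p = 6.36e-05). Its partner Krt18 fell by 0.74 ± 0.22 and 2.12 ± 0.22 (difference 1.38 ± 0.30, adjusted p = 0.013). The 2 set aside went the other way: Dsg2, a desmosomal cadherin, fell by 3.34 in 3583T3 and Cldn4, a tight junction claudin, by 1.84, with differences of -3.41 and -1.69. Both keratins were already higher in 3583T3 controls, and the gap between the lines widened with Nfib. Leaving out the array labelled Nfib 2, the differences of Dsp, Krt8 and Krt18 were 2.08, 2.77 and 1.48, all called, and the call was lost for Krt18 without control 1, control 3 and Nfib 4 (1.09 to 1.29). The own change of Krt18 in 3583T3 was then -0.64 (adjusted p = 0.286).

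Of 15 contractile genes of smooth muscle, 2 were higher and none lower beyond the 1 set aside. Of 27 genes of mesenchymal transition 2 were higher and 1 lower (median differences 0.03 and -0.00104). Called were 20% and 11.1% of these lists, against 6.85% of all genes. Actg2, the enteric gamma actin of smooth muscle, read 7.07 and 8.17 and then 8.03 and 8.95 in 3583T3, a change of 0.87 ± 0.39 (adjusted p = 0.197). In 3151T4 it fell by 4.65 ± 0.39, from 9.25 and 9.03 to 4.86 and 4.12 (difference 5.52 ± 0.55, adjusted p = 2.31e-05). The 3151T4 Nfib arrays alone were low. Tagln, transgelin, an actin-binding protein of smooth muscle, fell by 2.63 ± 0.30 in 3151T4 and moved by -0.89 ± 0.30 in 3583T3 (difference 1.74 ± 0.42, adjusted p = 0.0219). Cdh11, a cadherin of mesenchymal cells, rose from 7.16 and 6.32 to 7.87 and 9.49 in 3583T3 and moved by -1.53 ± 0.52 in 3151T4, from 9.24 and 8.79 to 7.89 and 7.09 (difference 3.47 ± 0.73, adjusted p = 0.00982). Prrx1, a homeobox factor of mesenchyme, rose in both lines, by 2.54 ± 0.25 in 3583T3 and 4.03 ± 0.25 in 3151T4 (difference -1.49 ± 0.36, adjusted p = 0.021). With Nfib 1 as the only 3583T3 Nfib array, the differences were 5.06, 1.95, 2.66 and -1.83 in this order, all called. The calls were lost for Tagln without control 1, control 3 and Nfib 4 (1.42 to 1.56), Cdh11 without control 2, control 3 and Nfib 4 (3.05 to 3.25) and Prrx1 without Nfib 1, control 2, Nfib 3, control 4 and Nfib 4 (-1.14 to -1.54). With Nfib 1 alone the own change of Cdh11 in 3583T3 was 1.14 (adjusted p = 0.356).

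Among the named genes not set aside the largest negative differences were those of the leukocyte genes Cd74 and Cd53. Of 14 leukocyte markers tested, 14 fell with Nfib in 3583T3 and 11 in 3151T4, against 436 and 514 of all 8777 genes. The difference was lower in 3583T3 for 4 not set aside and for 7 set aside, with a median of -2.02 (78.6% called, against 6.85% of all genes). All 7 had a mean under log2 4 with Nfib in both lines, from a higher mean in 3583T3 controls than in 3151T4 controls. One of them was C1qb, a complement component made by macrophages, at 11.21 (mean of 2) in 3583T3 and 9.35 in 3151T4 controls and at 2.24 and 2.15 with Nfib. The summed signal of the tested markers, on a log2 scale, was 13.05 and 13.83 in 3583T3 controls and 7.91 and 7.58 with Nfib, and 11.91 and 11.81 in 3151T4 controls and 9.97 and 9.98 with Nfib. Of all 15 markers on the array, 14 had a mean above log2 4 in 3583T3 controls and 1 with Nfib, and 11 in 3151T4 controls and 4 with Nfib. Ptprc, the pan-leukocyte antigen, was at 2.04 and 2.06 in the Nfib means of the lines, and Aif1 was under log2 3 in all 4 groups. In Mycl1 cultures without Nfib the markers were low as well, with a summed signal of 8.71 and 8.63 in 3583T3 and 7.96 and 7.92 in 3151T4. The part that the leukocyte markers have in the other results was not tested.

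**Figure D3:**
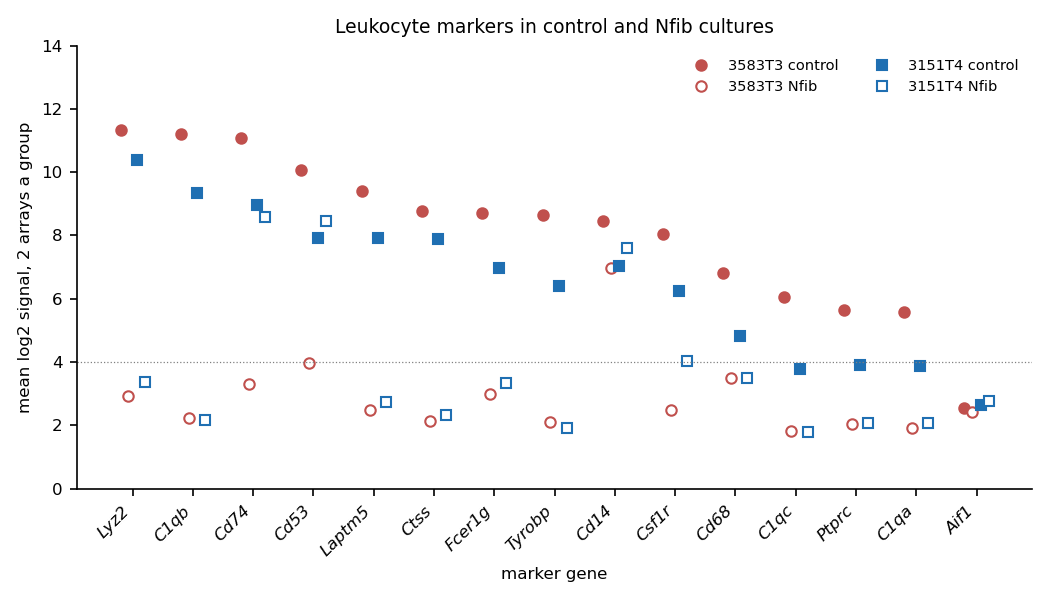
Mean log2 signal (y axis, 2 arrays a group) of the 15 leukocyte markers on the array (x axis) in control (filled) and Nfib cultures (open) of 3583T3 (red circles) and 3151T4 (blue squares), with the floor at log2 4 dotted. With Nfib most markers were under the floor in both lines, but Cd74, Cd53 and Cd14 stayed above log2 7 in 3151T4. Cd14 was above the floor in 3583T3 with Nfib as well, at 6.96.

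Cd74, Cd53 and Cd14 were the 3 tested markers that did not pass the test of a change in 3151T4. Cd14 had means of 8.46 and then 6.96 with Nfib in 3583T3, and of 7.04 and then 7.59 in 3151T4. It thus stayed above the floor in both lines. Cd74, a chaperone of class II histocompatibility molecules, read 10.51 and 11.65 in 3583T3 controls, 3.33 and 3.29 with Nfib, 9.04 and 8.85 in 3151T4 controls and 8.61 and 8.52 with Nfib. It fell by 7.77 ± 0.30 in 3583T3 and moved by -0.38 ± 0.30 in 3151T4 (adjusted p = 0.48), a difference of -7.39 ± 0.42 (limma, adjusted p = 8.88e-08), or -6.70 with the floor. Only the 3583T3 Nfib arrays were low. Cd53, a leukocyte tetraspanin, had the same pattern, with 9.97 and 10.18 and then 3.74 and 4.22 in 3583T3 and 8.28 and 7.57 and then 8.36 and 8.57 in 3151T4 (difference -6.64 ± 0.42, adjusted p = 2.69e-07; -6.62 with the floor). Csf1r, the receptor of macrophage colony-stimulating factor, fell in both lines, from 7.50 and 8.60 to 2.47 and 2.51 and from 6.16 and 6.31 to 4.03 and 4.01 (difference -3.35 ± 0.42, adjusted p = 0.000222; -1.84 with the floor). Its other probe sets gave -2.63 and -1.03. It thus ended near the floor in both.

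Alox5ap, a helper of leukotriene synthesis in myeloid cells, fell by 5.03 ± 0.32 in 3583T3, from 6.85 and 8.08 to 2.47 and 2.40, while 3151T4 read 5.61 and 5.55 and then 4.97 and 5.42 (difference -4.64 ± 0.46, adjusted p = 2.16e-05; -3.08 with the floor). Gpnmb, a glycoprotein of macrophages and pigment cells, fell from 6.21 and 7.26 to 3.31 and 4.43 in 3583T3 and read 3.15 and 3.18 and then 4.04 and 4.23 in 3151T4 (difference -3.84 ± 0.53, adjusted p = 0.000467; -2.87 with the floor). Pf4, platelet factor 4, a chemokine of platelets and myeloid cells, crossed over. It fell by 3.18 ± 0.25 in 3583T3, from 5.27 and 5.90 to 2.42 and 2.39, and rose by 2.24 ± 0.25 in 3151T4, from 3.35 and 3.41 to 5.35 and 5.89 (difference -5.42 ± 0.36, adjusted p = 3.95e-07; -3.20 with the floor). Without the array labelled Nfib 2 the differences were -7.37 for Cd74, -6.87 for Cd53, -3.37 for Csf1r, -4.61 for Alox5ap, -4.40 for Gpnmb and -5.41 for Pf4, all called. The summed leukocyte signal was lower with Nfib in both lines beside these genes.

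Inflammatory genes that differed were lower in 3583T3. Of 30 chemokine and acute phase genes tested, 5 were lower and none higher among those not set aside, with 2 set aside. That is 23.3% called, against 6.85% of all genes. On this list 15 rose in 3151T4 and 7 in 3583T3, against 694 and 450 of all 8777 genes. The list's median difference was -0.69. Ccl20, a chemokine for lymphocytes and dendritic cells, rose by 1.95 ± 0.54 in 3151T4, from 4.99 and 4.53 to 6.91 and 6.50, and read 6.26 and 5.35 and then 4.85 and 3.29 in 3583T3 (difference -3.68 ± 0.76, adjusted p = 0.00872). Il18, a cytokine of the interleukin 1 family, fell from 6.24 and 6.96 to 4.30 and 3.41 in 3583T3 and stayed within 8.72 to 9.09 in 3151T4 (difference -2.63 ± 0.54, adjusted p = 0.00798; -2.49 with the floor). Casp1, the protease that matures Il18, rose by 3.24 ± 0.41 in 3151T4, from 5.56 and 5.48 to 8.72 and 8.80, and read 3.89 and 4.72 and then 3.01 and 4.60 in 3583T3 (difference -3.74 ± 0.59, adjusted p = 0.00128; -3.54 with the floor). Il1rap, a co-receptor of interleukin 1, fell by 1.41 ± 0.20 in 3583T3, from 7.94 and 7.61 to 6.18 and 6.55, and rose by 1.27 ± 0.20 in 3151T4, from 6.02 and 6.06 to 7.28 and 7.34 (difference -2.68 ± 0.29, adjusted p = 5.46e-05). Tlr3, a sensor of double-stranded RNA, had a difference of -1.15 ± 0.27 (adjusted p = 0.0191) with neither line's own change called. Leaving out the array labelled Nfib 2, the differences were -2.90, -2.18, -4.53, -2.86 and -1.18 in this order, all called, and the call was lost for Tlr3 without control 1, Nfib 3 and control 4 (-0.94 to -1.04).

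Ptx3, a secreted pattern recognition protein of the long pentraxins, went in the other direction, and it was on no list. It read 2.24 and 2.39 in 3583T3 controls, 9.30 and 7.94 with Nfib, 12.43 and 12.79 in 3151T4 controls and 12.79 and 12.93 with Nfib. It rose by 6.30 ± 0.73 in 3583T3, a difference of 6.05 ± 1.03 (adjusted p = 0.00238), at least 4.36 with the floor and 6.73 without the array labelled Nfib 2. Interferon response genes rose in both lines, 19 of 32 in 3583T3 and 20 in 3151T4, against 450 and 694 of all 8777 genes. The difference was higher for 1, lower for 1 and set aside for 2, so 12.5% were called, against 6.85% of all genes. Ifit2, an interferon-induced protein, fell by 0.64 ± 0.16 in 3583T3 and rose by 1.07 ± 0.16 in 3151T4 (difference -1.72 ± 0.23, adjusted p = 0.000369; -1.71 without the array). Ifitm3, a membrane protein that restricts viral entry, rose by 1.62 ± 0.20 in 3583T3 (difference 1.05 ± 0.28, adjusted p = 0.0342); the call was lost for Ifitm3 without control 1, Nfib 2, control 3, Nfib 3 and Nfib 4 (0.75 to 1.12). The own change of Ifit2 in 3583T3 without the array labelled Nfib 2 was -0.64 (adjusted p = 0.12).

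Homeobox and patterning factors had 1 higher, 3 lower and 4 set aside of 43 tested, with a median difference of 0.47. That is 18.6% called, against 6.85% of all genes. Hoxa10, a factor of posterior and limb patterning, read 2.14 and 2.51 in 3583T3 controls and 8.86 and 6.17 with Nfib, and 8.07 and 7.90 and then 6.76 and 7.26 in 3151T4. It rose by 5.19 ± 1.08 in 3583T3, and its difference was 6.16 ± 1.52 (adjusted p = 0.0245), at least 4.49 with the floor. The arrays labelled as 3583T3 Nfib were far apart, yet both lay above their controls. Irx2, of the Iroquois family, fell by 0.67 ± 0.16 in 3583T3 (difference -0.93 ± 0.23, adjusted p = 0.0231). With Nfib 1 as the only 3583T3 Nfib array, the differences were 7.51 and -1.06, both called. The calls were lost for Hoxa10 without control 1, Nfib 1, control 2, control 3, Nfib 3, control 4 and Nfib 4 (4.82 to 6.42) and Irx2 without control 1, Nfib 1, control 2, control 3, Nfib 3, control 4 and Nfib 4 (-0.81 to -0.99).

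Among neuronal adhesion and axon guidance genes 3 of 22 were higher and 1 lower (median 0.01), so 18.2% were called, against 6.85% of all genes. Slit2, a repellent guidance cue, rose in both lines, by 0.97 ± 0.20 in 3583T3 and 2.89 ± 0.20 in 3151T4, where it went from 6.83 and 6.89 to 9.70 and 9.80 (difference -1.92 ± 0.28, adjusted p = 0.000781; -1.84 without the array labelled Nfib 2). The attractant cue Ntn1 fell by 1.29 ± 0.24 in 3151T4 (difference 1.37 ± 0.34, adjusted p = 0.0241), and the semaphorin Sema4d by 1.05 ± 0.26 (difference 1.58 ± 0.37, adjusted p = 0.0191). The calls were lost for Ntn1 without control 1, Nfib 2, control 3, control 4 and Nfib 4 (1.07 to 1.44) and Sema4d without control 1, control 2, Nfib 2, control 3, Nfib 3, control 4 and Nfib 4 (1.19 to 1.64). Of 13 genes of calcium, channels and synapse, 1 was higher, 1 lower and 2 set aside (30.8% called). Cacna2d1, an accessory calcium channel subunit, rose by 1.18 ± 0.25 in 3583T3 and fell by 0.84 ± 0.25 in 3151T4 (difference 2.02 ± 0.35, adjusted p = 0.00251; at least 1.59 with the floor, 1.96 without the array). Bex3, a small brain-expressed protein, fell by 1.19 ± 0.18 in 3583T3 and stayed within 11.02 to 11.41 in 3151T4 (difference -1.24 ± 0.26, adjusted p = 0.00966; -1.20 without the array), and the call was lost for Bex3 without control 4 (-1.04). No neuroendocrine gene was called outside those set aside. Among the 8 tested, 2 had an unadjusted p under 0.05, against 1693 of all 8777 genes. Ddc, the 1 called by limma, went from a mean of 10.54 to 7.65 in 3151T4. In 3583T3 it was at the floor, at 1.59 and then 1.80.

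Few genes of proliferation were called. Of 38 DNA replication genes 0 were called by limma and 7 had an unadjusted p under 0.05, and of 37 mitotic genes 1 was called. Over all 8777 genes 601 were called and 1693 had an unadjusted p under 0.05. Of 44 MYC target and ribosome biogenesis genes 2 were higher, with a median difference of 0.51 and 19 at an unadjusted p under 0.05. Nop2, a nucleolar methyltransferase, fell by 0.78 ± 0.18 in 3151T4 (difference 1.23 ± 0.25, adjusted p = 0.00774; 0.95 without the array labelled Nfib 2). Wdr12, a ribosome assembly factor, rose by 0.74 ± 0.19 in 3583T3 (difference 1.13 ± 0.26, adjusted p = 0.0178). Both read highest in 3583T3 Nfib on the array labelled Nfib 2, at 11.10 for Nop2 and 10.79 for Wdr12, against 10.52 and 10.33 on Nfib 1. Cdkn1a, the cyclin-dependent kinase inhibitor p21, fell by 1.77 ± 0.55 in 3151T4, from 7.11 and 6.82 to 5.36 and 5.03, and read 8.16 and 8.74 and then 9.04 and 10.88 in 3583T3 (difference 3.28 ± 0.78, adjusted p = 0.0204). Ccnd2, cyclin D2, rose by 0.83 ± 0.17 in 3151T4 (difference -1.07 ± 0.23, adjusted p = 0.0122). The calls were lost for Wdr12 without control 2, Nfib 2, control 3, Nfib 3 and Nfib 4 (0.90 to 1.16), Cdkn1a without control 1, Nfib 2, control 3, Nfib 3, control 4 and Nfib 4 (2.36 to 3.44) and Ccnd2 without Nfib 2, control 4 and Nfib 4 (-0.94 to -1.06). The own change of Wdr12 in 3583T3 without the array labelled Nfib 2 was 0.51 (adjusted p = 0.286).

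Of 31 apoptosis genes 1 was higher and 2 were lower, so 9.68% were called, against 6.85% of all genes. Pmaip1, the BH3-only protein Noxa, fell in both lines, by 1.52 ± 0.23 in 3583T3 and 3.06 ± 0.23 in 3151T4 (difference 1.54 ± 0.32, adjusted p = 0.00866; 1.53 without the array labelled Nfib 2), and the call was lost for Pmaip1 without Nfib 4 (1.38). Dapk1, a death-associated kinase, rose in both, by 2.19 ± 0.29 and 4.59 ± 0.29, from 3.84 and 3.54 to 8.50 and 8.05 in 3151T4 (difference -2.40 ± 0.42, adjusted p = 0.00265; -2.09 with the floor, -2.63 without the array), but its other probe set gave -0.01. Of 35 stress response genes 2 were lower, or 5.71%, a share no larger than the 6.85% of all genes. Cebpd, a transcription factor of the acute phase, rose by 3.06 ± 0.27 in 3151T4, from 6.72 and 6.66 to 9.80 and 9.70, and read 6.91 and 7.05 and then 8.09 and 7.08 in 3583T3 (difference -2.45 ± 0.38, adjusted p = 0.00128; -1.95 without the array). Vldlr, a lipoprotein receptor, fell by 0.64 ± 0.19 in 3583T3 (difference -1.19 ± 0.27, adjusted p = 0.0152), and the call was lost for Vldlr without control 2, Nfib 2, control 3, Nfib 3, control 4 and Nfib 4 (-0.98 to -1.21). The own change of Vldlr in 3583T3 was -0.44 (adjusted p = 0.459) without Nfib 2.

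Metabolic genes were mixed. Of 29 glycolysis and hypoxia genes 1 was higher, 2 lower and 1 set aside. Among 26 retinoid, carboxylesterase and xenobiotic genes 1 was higher, 4 lower and 3 set aside. Called were 13.8% and 30.8% of these lists, against 6.85% of all genes. Pfkfb3, which sets the rate of glycolysis through fructose 2,6-bisphosphate, fell from 9.43 and 9.74 to 7.78 and 7.96 in 3151T4 and stayed within 8.94 to 9.13 in 3583T3 (difference 1.78 ± 0.28, adjusted p = 0.00128). Aldoc, an aldolase, fell by 1.14 ± 0.29 in 3583T3 (difference -2.00 ± 0.41, adjusted p = 0.00881; -1.42 with the floor). Egln3, an oxygen-sensing prolyl hydroxylase, rose by 2.60 ± 0.29 in 3151T4, from 4.82 and 4.59 to 7.34 and 7.28 (difference -1.75 ± 0.42, adjusted p = 0.0204). Akr1c14, an aldo-keto reductase of steroids, fell by 2.06 ± 0.38 in 3583T3, from 9.61 and 9.13 to 6.67 and 7.95, and rose by 1.48 ± 0.38 in 3151T4, from 9.01 and 9.16 to 10.56 and 10.59 (difference -3.55 ± 0.54, adjusted p = 0.00102). Dhrs3, a retinal reductase, fell by 1.26 ± 0.30 in 3583T3 (difference -2.11 ± 0.42, adjusted p = 0.00745), and Ces1g, a carboxylesterase, rose there by 1.10 ± 0.19 (difference 1.46 ± 0.27, adjusted p = 0.00457). Without the array labelled Nfib 2 the differences of Pfkfb3, Aldoc, Egln3, Akr1c14, Dhrs3 and Ces1g were 1.73, -1.91, -2.10, -4.18, -1.60 and 1.52, all called. The calls were lost for Aldoc without control 2, control 4 and Nfib 4 (-1.68 to -1.84) and Egln3 without control 1, Nfib 1, control 3, Nfib 3, control 4 and Nfib 4 (-1.39 to -1.86). The own changes in 3583T3 without Nfib 2 were Aldoc -1.05 (adjusted p = 0.15) and Dhrs3 -0.76 (adjusted p = 0.215), neither called.

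**Figure D4:**
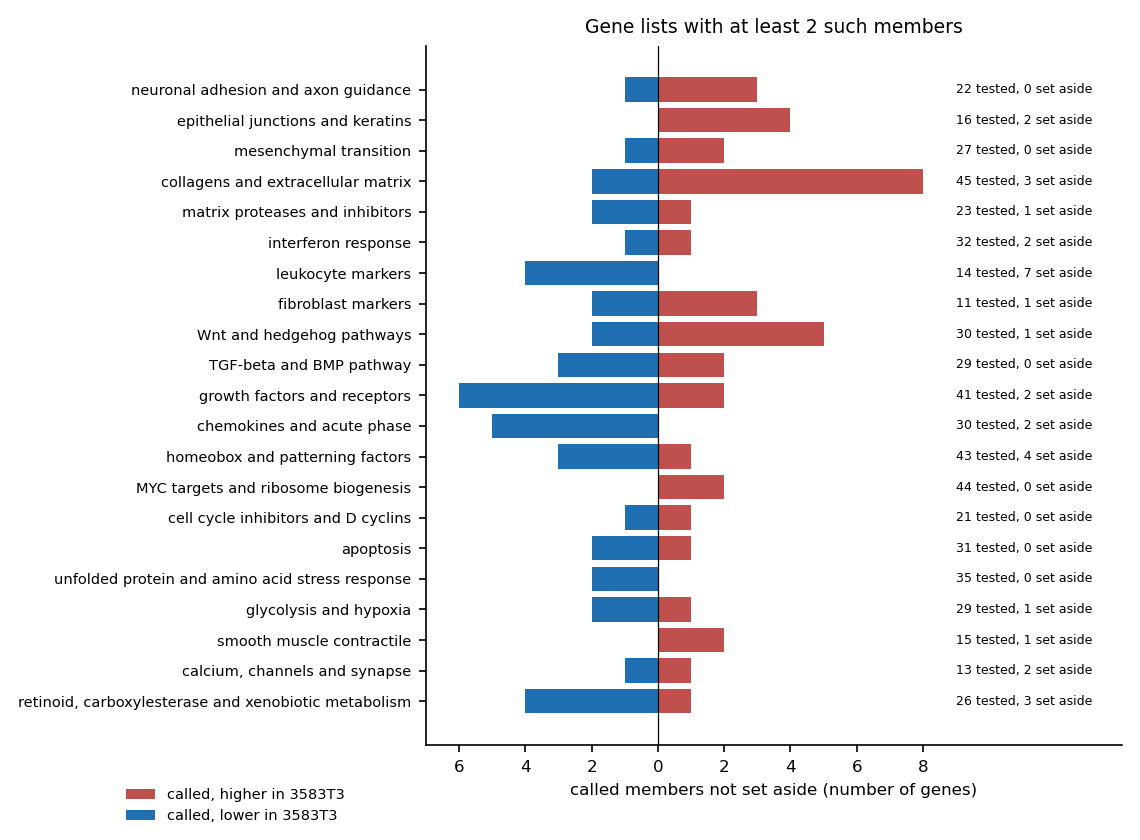
Number of called genes not set aside (x axis) in each of 21 gene lists (y axis) with at least 2 such genes, those higher in 3583T3 to the right in red and those lower to the left in blue, with the genes tested and set aside at the right. Collagens and matrix genes had 8 to the right and 2 to the left, and the leukocyte list and the chemokine and acute phase list had none to the right.

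Lists changed their counts without the 2 arrays that go against their labels. Counting those set aside, the homeobox list went from 3 higher and 5 lower to 5 and 6, the protease list from 1 and 3 to 3 and 4, and the chemokine list from 0 and 7 to 1 and 8. Of the MYC targets 1 was then called, and the mitotic gene Ccnb2 was not. The other lists named kept their number of called genes within 1.5 times, apart from the neuroendocrine list, which went from 1 to 2.

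The largest positive difference among the named genes, and outside the lists, was that of Cd34, a sialomucin of blood and endothelial progenitors that some fibroblasts also carry. Cd34 read 4.10 and 4.84 in 3583T3 controls and 8.89 and 9.65 with Nfib, and 6.33 and 6.23 in 3151T4 controls and 4.83 and 4.65 with Nfib. It rose by 4.80 ± 0.32 in 3583T3 and fell by 1.54 ± 0.32 in 3151T4, a difference of 6.35 ± 0.45 (limma, adjusted p = 8.25e-07) and of 5.97 without the array labelled Nfib 2. The Nfib arrays of 3583T3 lay above every array of 3151T4, while its controls lay below those of 3151T4. Of the 7 endothelial markers on the array 3 had a mean above log2 4 in 3583T3 controls and 2 with Nfib, and 1 and 2 in 3151T4.

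Tmem45a, a transmembrane protein, rose by 4.62 ± 0.24 in 3583T3, from 4.62 and 5.07 to 9.29 and 9.64, and stayed within 5.25 to 5.95 in 3151T4 (difference 4.08 ± 0.34, adjusted p = 4.15e-06). Tub, the tubby protein of neurons and cilia, rose from 3.33 and 2.74 to 4.75 and 7.12 and read 7.85 and 7.18 and then 5.92 and 6.10 in 3151T4 (difference 4.40 ± 0.97, adjusted p = 0.0131; at least 3.44 with the floor). Epb41l3, a membrane skeleton protein of the 4.1 family, fell by 2.96 ± 0.68 in 3151T4, from 7.25 and 7.54 to 4.79 and 4.07, and read 5.80 and 5.91 and then 7.15 and 8.28 in 3583T3 (difference 4.82 ± 0.96, adjusted p = 0.00705). Further genes rose in 3583T3 and fell in 3151T4. Plac8 rose by 1.90 ± 0.53 and fell by 1.89 ± 0.53 (difference 3.79 ± 0.75, adjusted p = 0.00699), the dipeptidase Dpep1 rose by 1.63 ± 0.28 and fell by 2.09 ± 0.28 (3.72 ± 0.40, 5.32e-05; at least 3.04 with the floor), and the peroxidase Gpx7 of the endoplasmic reticulum rose by 1.48 ± 0.25 and fell by 1.42 ± 0.25 (2.91 ± 0.36, 0.00018). Leaving out the array labelled Nfib 2, the differences of Tmem45a, Tub, Epb41l3, Plac8, Dpep1 and Gpx7 were 3.90, 3.22, 4.25, 3.00, 3.70 and 2.85, all called, and the call was lost for Tub without control 2, control 3 and Nfib 3 (4.07 to 4.31). The own changes in 3583T3 without Nfib 2 were Tub 1.71 (adjusted p = 0.198) and Plac8 1.11 (adjusted p = 0.422), neither called.

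In the negative direction Shisa2, a membrane protein of the endoplasmic reticulum that restrains Wnt and fibroblast growth factor receptors, rose by 5.06 ± 0.47 in 3151T4, from 4.48 and 4.34 to 9.11 and 9.82, and read 4.62 and 4.40 and then 5.03 and 3.33 in 3583T3 (difference -5.39 ± 0.66, adjusted p = 0.000183). Npas2, a circadian transcription factor, rose by 4.35 ± 0.48 in 3151T4, from 4.34 and 4.41 to 8.59 and 8.85, against 4.05 and 3.99 and then 5.36 and 3.32 in 3583T3 (difference -4.03 ± 0.68, adjusted p = 0.00226). The controls of both lines began at about the same level for these genes, and only the 3151T4 Nfib arrays were high. That level was close to the floor at log2 4, with control means in 3583T3 and 3151T4 of 4.51 and 4.41 for Shisa2 and 4.02 and 4.37 for Npas2. On the array labelled Nfib 2 both were under it. Equal control levels and a fall in 3583T3 could thus not be read reliably. Zfp185, an actin-associated LIM protein, rose from 3.27 and 3.16 to 6.51 and 6.30 in 3151T4 and read 4.26 and 4.35 and then 3.94 and 2.65 in 3583T3 (difference -4.19 ± 0.58, adjusted p = 0.000494; -2.70 with the floor). Myo5b, a motor of membrane recycling, rose from 3.54 and 3.34 to 6.52 and 6.07 in 3151T4 and read 6.80 and 7.25 and then 6.43 and 3.83 in 3583T3 (difference -4.75 ± 1.10, adjusted p = 0.0169; -4.20 with the floor). On the 3583T3 side each of these 4 genes read lower on the array labelled Nfib 2 than on Nfib 1. Without it their differences were -4.54, -3.01, -3.55 and -3.45, all called, and the call was lost for Myo5b without control 2, control 3, Nfib 3 and control 4 (-4.53 to -4.85).

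Bves and Popdc3, neighbours of the Popeye family of cyclic AMP-binding membrane proteins, moved alike. Bves fell by 2.17 ± 0.50 in 3583T3, from 8.06 and 8.33 to 6.81 and 5.22, and rose by 1.67 ± 0.50 in 3151T4, from 4.13 and 4.26 to 5.97 and 5.76 (difference -3.84 ± 0.71, adjusted p = 0.00419). Popdc3 fell by 2.23 ± 0.65 in 3583T3, from 7.81 and 7.69 to 6.49 and 4.55, and moved by 1.96 ± 0.65 in 3151T4, from 3.35 and 3.13 to 5.50 and 4.90 (difference -4.19 ± 0.92, adjusted p = 0.0123; -3.43 with the floor). For both the lines stood further apart in controls than with Nfib. Adgra2, an adhesion receptor that aids Wnt7 signalling in brain vessels, fell by 0.83 ± 0.24 in 3583T3 and rose by 2.05 ± 0.24 in 3151T4, where it went from 5.58 and 5.87 to 7.83 and 7.73 (difference -2.88 ± 0.34, adjusted p = 0.000117). With Nfib 1 as the only 3583T3 Nfib array, the differences were -3.05, -3.22 and -2.96, all called, and the call was lost for Popdc3 without Nfib 3 and control 4 (-3.89 to -4.08). The own changes in 3583T3 were then Bves -1.38 (adjusted p = 0.168), Popdc3 -1.26 (adjusted p = 0.476) and Adgra2 -0.90 (adjusted p = 0.12), none called.

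The 222 genes set aside are represented by the 4 with the largest measured difference in each direction, given as levels. Car9, carbonic anhydrase 9, a target of hypoxia signalling, read 2.70 and 2.72 in 3151T4 controls and 10.88 and 10.81 with Nfib, and it stayed between 3.03 and 3.61 in 3583T3. Epyc, epiphycan, went from 2.86 and 3.28 to 10.36 and 9.92, Ecrg4 from 3.48 and 3.33 to 10.88 and 10.74 and the homeobox gene Lhx8 from 2.23 and 2.08 to 9.35 and 9.47 in 3151T4, and all 3 were under log2 4 on every 3583T3 array compared. These 4 genes appeared in 3151T4 with Nfib and were at the floor in 3583T3 with or without it, so no size of response can be given there. In the other direction Rgs5, a regulator of G protein signalling in pericytes, fell from 8.01 and 8.29 to 2.89 and 3.17 in 3151T4, F13a1, a coagulation factor of myeloid cells, from 10.86 and 11.37 to 5.93 and 6.12, Asb5 from 8.52 and 9.06 to 4.10 and 4.77 and the kinase Stk26 from 9.59 and 9.67 to 4.57 and 5.17. On 3583T3 arrays these 4 genes read 1.78 to 3.23, a level from which no fall could be seen.

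The same contrast was then read in the other 8 arrays, as Nfib+Mycl1 minus Mycl1 in 3583T3 less that in 3151T4, which shares no array with the first. Here the test called 175 of 8777 genes (1.99%), 131 higher and 44 lower. The sign was the same for 329 of the 379 genes (86.8%), against 5138 of all 8777 (58.5%). Of the 170 higher genes 156 kept the sign and 42 were called with it, and of the 209 lower genes 173 kept it and 9 were called with it. The median difference of the 170 was 1.80 without and 0.96 with the Mycl1 vector, and that of the 209 was -1.68 and -0.50. Without the 2 arrays that go against their labels the count rose from 175 to 393, the sign was the same for 349 of the 379 (92.1%, against 65.3% of all genes) and 118 of them, 69 higher and 49 lower, were called with it. The count of 175 was 79 without Mycl1 replicate 3 of 3151T4, 78 without Mycl1 replicate 4 and 87 without Nfib+Mycl1 replicate 3.

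**Figure D5:**
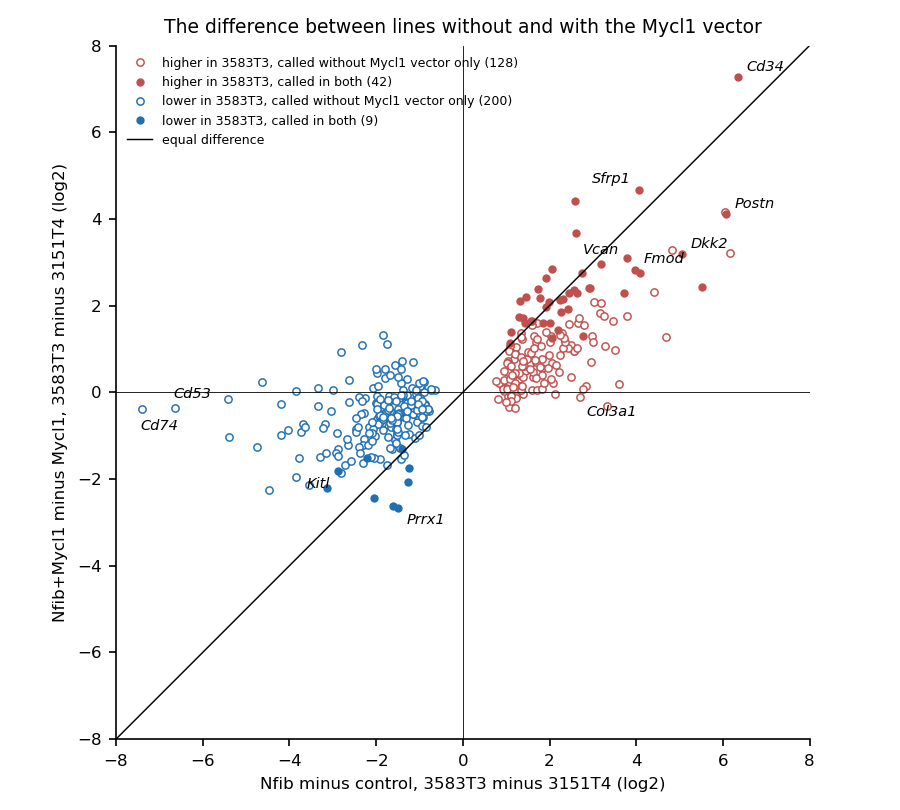
Difference between the lines without the Mycl1 vector (x axis, log2) against the same difference in cells with it (y axis, log2) for the 379 genes, filled where both were called. The diagonal marks equal size; 42 of the red genes (higher in 3583T3) and 9 of the blue genes (lower) are filled, and Cd74 and Cd53 lie near 0 on the y axis.

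Cd34 was again the clearest case, with a difference of 7.27 ± 0.45 in Mycl1 cells (limma, adjusted p = 4.84e-07), from 3.07 and 3.48 to 8.62 and 9.21 in 3583T3 and from 5.86 and 5.33 to 3.90 and 4.03 in 3151T4. Sfrp1 had 4.67 ± 0.37 (adjusted p = 8.86e-06), Postn 4.11 ± 0.29 (2.41e-06), Vcan 3.10 ± 0.31 (8.38e-05), Fmod 2.83 ± 0.33 (0.000406), Dkk2 3.18 ± 0.61 (0.014) and Actg2 2.42 ± 0.55 (0.035). Of the 8 matrix genes higher in 3583T3, 3 were called in Mycl1 cells, Postn, Vcan and Col6a3, while Col1a2, Col3a1, Col8a1, Fbln1 and Thbs2 were not (adjusted p = 0.179 to 0.979); without the 2 arrays Col8a1 and Fbln1 were called too. Of the 5 genes of the Wnt and hedgehog list, Sfrp1 and Dkk2 were called and Dkk3, Gas1 and Sfrp4 were not, with or without those arrays. The difference of Col3a1 was -0.11 ± 0.51. Of the lower genes, Prrx1 had -2.66 ± 0.36 (adjusted p = 0.00118) and Kitl -1.83 ± 0.40 (0.0296). The leukocyte and myeloid genes did not pass: Cd74 had -0.39 ± 0.42 (adjusted p = 0.831), Cd53 -0.36 ± 0.42 (0.851), Alox5ap 0.24 ± 0.46 (0.927) and Gpnmb 0.04 ± 0.53 (0.993). In 3583T3 Mycl1 cultures without Nfib, Cd74 was at 2.91 and 3.12 and Cd53 at 3.60 and 3.56, so a fall could not be measured there. Without the 2 arrays that go against their labels the differences in Mycl1 cells were 6.98 for Cd34, 4.91 for Sfrp1, 4.40 for Postn, 3.17 for Vcan, 2.80 for Fmod, 2.76 for Dkk2, 2.83 for Actg2, -2.40 for Prrx1 and -2.22 for Kitl, all called. They were 0.58 for Col3a1 (adjusted p = 0.375), -0.54 for Cd74 (0.734), 0.06 for Cd53 (0.984), 0.40 for Alox5ap (0.868) and 0.40 for Gpnmb (0.83).

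Other probe sets bore on the same genes. For 29 of the named genes the array held 50 further probe sets above the filter, and 39 of the 50 were called with the same sign. Sizes differed by over 1.5 times for some: beside the genes already given, other probe sets read 1.68 for Cdkn1a, 4.42 for Col3a1, 0.89 for Igf2, -0.81 for Inhbb, 2.06 for Mmp23 and -0.67 to -1.73 for Ccnd2. Promoter windows of 300 bases around gene starts (RefSeq, GRCm38.p6) were available for 58 of the 76 named genes not set aside. None held the full nuclear factor I palindrome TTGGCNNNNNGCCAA on either strand. It was present for 3 of the 7123 tested genes that had a window (0.0421%). With so rare a motif, its absence for 58 genes cannot tell whether nuclear factor I binds near them.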

How the data were processed

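Total RNA of 16 samples was extracted with Trizol, and 100 ng was amplified and hybridised to 1-colour Affymetrix arrays, per the labels' protocols. The submitters' processing notes name R 2.11.0 and GCRMA 2.20.0, which corrects background, normalises and summarises probes, and the authors deposited log2 values from it, a scale inferred here from their range. GCRMA values near the floor are compressed, so differences there can be too small or made by the floor. Of 22690 probe sets 20380 had 1 gene symbol in the platform's annotation, 691 had several, 1555 had none and 64 were controls. Those above log2 4 on at least 2 arrays were used, 1 per gene (the highest mean), which left 8777 of 12393 genes.

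In R 4.3.3 with limma 3.58.1 a model with 1 mean per line and vector was fitted to all 16 arrays (lmFit, eBayes with trend, 8 residual degrees of freedom), tested on simulated data, two-sided, with Benjamini-Hochberg adjustment over all genes. A called gene was set aside where a group mean under log2 4 could have made its difference, and otherwise kept if all means were above it or a lower bound of at least 1 remained. Named were the 12 largest differences per direction with arrays that did not overlap, the 5 largest per direction among genes called with opposite signs, up to 3 genes of smallest p from each list with 2 or more called, and the 4 largest per direction set aside. Predicted genes were skipped; Igfbp3, Dsg2, Cldn4, Ddc and the other list and marker genes given outside this rule were chosen after their values were seen. The members and the 32 gene lists were chosen with earlier results of these data known. Replicate numbers were not treated as pairs in the main fit. Deviations correlated at 0.072 in 3583T3, where the array labelled Nfib 2 enters, and at 0.282 in 3151T4, which cannot settle whether they are pairs. With the number as a replicate block 266 genes were called and not set aside, against 379. Figures were drawn with Python 3.11.15 and matplotlib 3.10.9.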

Additional observations from a re-analysis of the deposited data

Results flagged for a closer look

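The response to Nfib differed between 3583T3 and 3151T4 by a test of the difference itself (limma, adjusted p under 0.05) for 601 genes, and for each of the 76 named genes not set aside, whose differences (3583T3 minus 3151T4, log2) are given here. 36 of the 76 were higher in 3583T3. The largest had log2 differences of Cd34 6.35, Hoxa10 6.16, Postn 6.07, Ptx3 6.05, Actg2 5.52, Dkk2 5.06, Epb41l3 4.82, Sulf2 4.68 and Tub 4.40. Next came Tmem45a 4.08, Sfrp1 4.07, Fmod 3.98, Vcan 3.80, Plac8 3.79, Dpep1 3.72, Cdh11 3.47, Cdkn1a 3.28 and Mmp23 3.17. Then followed Gpx7 2.91, Krt8 2.78, Col3a1 2.71, Grem1 2.57, Col6a3 2.26, Dsp 2.06, Cacna2d1 2.02, Igf2 1.86 and Pfkfb3 1.78. The smallest were Tagln 1.74, Sema4d 1.58, Pmaip1 1.54, Ces1g 1.46, Krt18 1.38, Ntn1 1.37, Nop2 1.23, Wdr12 1.13 and Ifitm3 1.05. The other 40 were lower in 3583T3. The largest had log2 differences of Cd74 -7.39, Cd53 -6.64, Pf4 -5.42, Shisa2 -5.39, Myo5b -4.75, Alox5ap -4.64, Igfbp2 -4.46, Zfp185 -4.19 and Popdc3 -4.19. Next came Npas2 -4.03, Gpnmb -3.84, Bves -3.84, Casp1 -3.74, Ccl20 -3.68, Akr1c14 -3.55, Csf1r -3.35, Id4 -3.33 and Lrp5 -3.19. Then followed Adgra2 -2.88, Kitl -2.88, Il1rap -2.68, Il18 -2.63, Cebpd -2.45, Dapk1 -2.40, Adamts5 -2.29, Fgfr2 -2.15 and Dhrs3 -2.11. Smaller were Thy1 -2.01, Aldoc -2.00, Slit2 -1.92, Egln3 -1.75, Ifit2 -1.72, Prrx1 -1.49, Inhbb -1.47, Bex3 -1.24 and Vldlr -1.19. The smallest were Tlr3 -1.15, Ccnd2 -1.07, Adamts1 -1.06 and Irx2 -0.93. Their levels by array, errors and values without single arrays stand with each gene in the results.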

How the results depend on the processing

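No named gene reversed the sign of its difference under any alternative run, but the balance of higher and lower genes was less stable. The 601 genes became 343 to 901 when single arrays were left out, the 379 not set aside 192 to 626, the 886 of 3583T3 455 to 1390, the 1208 of 3151T4 658 to 743 where an array of its own was left out, and the 175 in Mycl1 cells 78 to 209. With array weights 583 genes were called and not set aside and 1980 in 3151T4, and with every probe set 1861 probe sets in 3151T4. Without the 2 arrays that go against their labels 393 were called in Mycl1 cells. The causes were not tested. With the floor at log2 3 459 genes were not set aside, and at log2 5 320. Among those not set aside 170 were higher and 209 lower, which turned to 213 and 187 with each array centred on its median and to 107 and 94 without 3151T4 control 4. The 694 up and 514 down of 3151T4 became 618 and 635 with that centring. The 450 up and 436 down of 3583T3 turned under 8 settings, among them 435 and 515 with no filter on dim probe sets, 453 and 467 with centring and 430 and 454 with only the 8 arrays compared. With no mean-variance trend Ifitm3 lost its call.

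With the replicate number as a replicate block 459 genes were called, 266 of them not set aside, with 690 in 3583T3, 1029 in 3151T4 and 126 in Mycl1 cells; Cdkn1a, Ifitm3 and Tagln lost their call. The numbers are not known to pair cultures. A signal near the floor limits every gene described as at least or set aside, and 2 arrays a group limit the rest.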
